A study of Homo sapiens with 6 samples.

Results

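The collagen genes were examined in SW839, an established renal cell carcinoma line, after knockdown of the ubiquitin ligase gene RNF25. They were the rows of the deposited table whose symbol reads COL, a number, A and a number, which gave 40 of the 30267 genes listed. By the kind of assembly their chains form, 11 were fibrillar, 6 were basement membrane (type IV) and 23 belonged to other classes. In 3 libraries the cells carried an RNF25 hairpin in the lentiviral vector pLKO (shRNF25, with the single hairpin name shRNF25B), and in 3 libraries they carried the pLKO control (shControl). The study used this line to ask what RNF25 does for NF-κB activity and resistance to apoptosis. All 6 libraries were total RNA depleted of ribosomal RNA, and no treatment or time point beyond the vector separates the groups in the labels. The infected cells had been selected with puromycin according to the study's methods. The treatment text of the controls also speaks of the shRNF25 plasmid, so the groups rest on the titles and genotype labels. The labels do not say whether the libraries of a group came from separate cultures, and the p-values therefore measure only the spread between these libraries. The shRNF25 library names form a numbered set and the shControl library names do not. With a single hairpin name, loss of RNF25 and other effects of that hairpin cannot be told apart.

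Collagens are made of α chains, each from its own gene or from copies of the same gene, wound into a triple helix. Fibrillar collagens pack side by side into the banded fibrils of tendon, bone, cartilage and stroma. Type IV chains form the sheet-like network of basement membranes, which in the kidney surround tubules and line the glomerular filter. The other classes include chains that sit on fibril surfaces (FACIT), the beaded filaments of type VI, short-chain networks and collagens that span the plasma membrane. Fibroblasts are the main source of fibrillar collagen in most tissues, and carcinoma cells can make collagens as well.

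RNF25 was measured first, because it is the target of the hairpin. Its normalized count (reads on a gene divided by 1 scaling factor for each library) was 694, 534 and 536 in the 3 shControl libraries and 214, 246 and 265 in the 3 shRNF25 libraries. The groups did not overlap, and the log2 fold change was -1.27 (SE 0.15, adjusted p = 0.000585 in limma, n = 3 and 3). STK36 overlaps 11.2% of the exon bases of RNF25 on the opposite strand, and the strand setting of the counting is not given in the sources used here. The libraries held between 18647460 and 19943154 reads on genes. The shRNF25 libraries resembled each other more (pairwise r across genes 0.994) than the shControl libraries did (0.976 to 0.987). Among the 28 collagen genes that passed the filter described next, shControl 3 was the highest control in 21 and shControl 1 the lowest in 19, and the median coefficient of variation was 23.3% in shControl and 7.82% in shRNF25. Values without shControl 3 are therefore given wherever the call changes or the fold change itself, not its log2, differs by more than 1.5 times. Smaller shifts are given for some genes only.

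SW839 expressed epithelial keratins strongly, with KRT8 between 22206 and 38009 normalized counts. VIM, a mesenchymal intermediate filament gene, rose from 448, 416 and 203 in shControl to 804, 882 and 810.2 in shRNF25 (log2 fold change 1.31, adjusted p = 0.00805) and was called in each of the 15 alternative fits. The epithelial genes CDH1 (-0.48, adjusted p = 0.0129) and KRT19 (-0.47, adjusted p = 0.0278) passed the adjusted p threshold with folds under 1.5. KRT8 was higher in every shRNF25 library than in any control (0.38, adjusted p = 0.111) but was called only with quantile normalization. KRT18 (0.09, adjusted p = 0.596) and EPCAM (-0.32, adjusted p = 0.0742) did not pass. Of the 10 tested renal epithelial and renal carcinoma markers, VIM alone was called, beside 15.75% of all tested genes. With 10 genes, 1 call cannot be told from that share. CA9, a marker of clear cell renal carcinoma, was low, between 1.85 and 50.7. Of 12 fibroblast markers, 9 were in the table, and PDGFRA, PDGFRB, THY1, FAP and DCN had at most 15 reads in every library. The summed normalized count of the 9 fibroblast markers was 1249 to 1351 in shControl and 1063 to 1214 in shRNF25, most of it FBLN1. None of the 4 that passed the filter was called. Of 8 endothelial markers in the table, KDR and ESAM rose and CDH5 fell, while VWF, TEK, TIE1 and CLDN5 stayed at or under 15 reads. CDH5 had normalized counts of 73.0, 103 and 199 in shControl and 3.6, 8.3 and 5.7 in shRNF25. Its log2 fold change was -4.12 (adjusted p = 0.000213 in limma), and that of KDR was 1.78 (adjusted p = 0.00116). Both genes were called in each of the 15 alternative fits. Thus 2 of the 4 tested endothelial markers were called higher and 1 lower, beside 15.75% of all tested genes called. The endothelial sums, 606 to 876 in shControl and 711 to 878 in shRNF25, overlapped, and their most abundant gene, PECAM1, was not called. ESAM was called in 11 of 15 alternative fits and lost without shControl 2 or any 1 shRNF25 library. Of the 6 leukocyte markers in the table only 2 passed the filter, and 0 were called. The sum of the 6 was 38.7 to 55.0 in shControl and 28.6 to 47.4 in shRNF25. Among the 4 fibroblast and 2 leukocyte markers tested, 0 had an unadjusted p under 0.05 in limma, and edgeR and DESeq2 called 0. With so few genes, 0 calls cannot be told from the 15.75% of all tested genes. PDGFRA was too low to be tested, with 1 to 3 reads in shControl and 7 to 11 in shRNF25. The groups of the other untested fibroblast markers, PDGFRB, THY1, FAP and DCN, overlapped. The part of these markers in the collagen values was not tested. In bulk RNA, fewer cells that express a gene and less RNA of that gene per cell cannot be told apart.

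The groups were compared with limma on log2(normalized count + 1) over 16554 genes, those whose normalized count reached 10 in 3 or more libraries. A gene was called when its adjusted p was under 0.05 and its fold change at least 1.5, the criteria of the study. Of the 40 collagen genes 28 passed the filter, and 7 of these were called higher and 4 lower in shRNF25. Over all tested genes 8.65% were called higher and 7.1% lower. For 15 of the 28 no library of one group reached into the range of the other, against 42.5% of all tested genes. The collagen genes did not move one way: the median log2 fold change was 0.13 over the 28 and -0.01 over all tested genes. By class the medians were 1.12 in the 8 tested fibrillar genes, -0.22 in the 6 type IV genes and 0.11 in the 14 others. Because COL3A1 reached the minimum only in the shRNF25 libraries, these medians and counts describe the genes that could be tested and not the whole family.

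**Figure D1:**
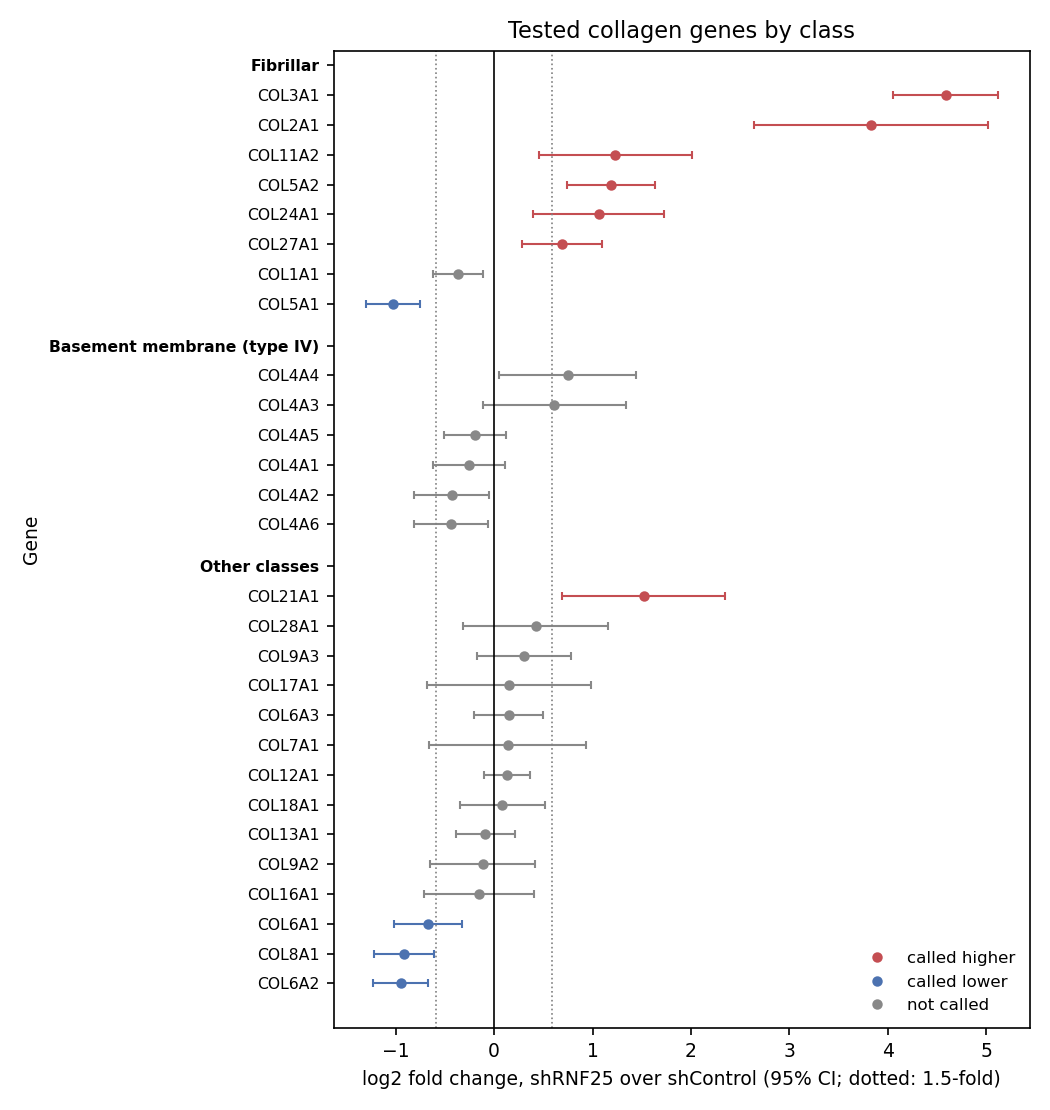
Log2 fold change of the 28 tested collagen genes in shRNF25 over shControl (x axis, points with 95% confidence intervals from limma, n = 3 and 3), one row a gene, grouped by class. The 6 fibrillar genes called higher lie between 0.69 and 4.59. None of the 6 type IV genes is called, beside 15.75% of all tested genes. COL6A1, COL6A2 and COL8A1 lie at the lower end of the other classes.

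The fibrillar genes held 6 of the 7 higher calls and 1 lower call, COL5A1. Without shControl 3 the 7 higher calls were 4 fibrillar, 1 type IV and 2 of the other classes, and without any 1 shRNF25 library 3 fibrillar genes were called higher. Leading them was COL3A1, the only chain of type III collagen, which accompanies type I in elastic tissues. COL3A1 had 5.53, 6.16 and 5.40 normalized counts in the shControl libraries and 167, 127 and 194 in the shRNF25 libraries. The controls rest on 5 or 6 reads each, and all 3 knockdown libraries were far above them, the means (± SD, n = 3) being 5.69 ± 0.41 in shControl and 162 ± 33.7 in shRNF25. The log2 fold change was 4.59 (SE 0.24, adjusted p = 8.89e-06), and it was 3.95 with a pseudocount of 5.

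COL2A1 encodes the chain of type II collagen, the main fibril of cartilage. Its normalized count was 175, 252 and 1045 in shControl and 5252, 4829.9 and 5270.2 in shRNF25. Every knockdown library was several times above every control, while shControl 3 stood well above the other controls. The log2 fold change was 3.83 (SE 0.53, adjusted p = 0.00133) and 4.60 without shControl 3, and the gene was called in each of the 15 alternative fits.

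Type V collagen is a fibril-associated heterotrimer that sets fibril diameter, and its chains parted. COL5A2 had normalized counts of 2858, 3410 and 5308 in shControl and 8600, 8166 and 8664 in shRNF25, a log2 fold change of 1.19 (SE 0.20, adjusted p = 0.00343). COL5A1, which supplies the partner chain, had 411, 446 and 484 in shControl and 224, 212 and 219 in shRNF25, a log2 fold change of -1.03 (SE 0.12, adjusted p = 0.00065). Neither gene had overlapping groups, and both were called in each of the 15 alternative fits. COL5A3, the third type V chain, had 2 to 11 reads a library and was not tested.

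COL11A2, COL24A1 and COL27A1 were called higher at low to moderate levels. COL11A2 encodes a chain of type XI collagen, which nucleates cartilage fibrils, and had normalized counts of 21.0, 38.0 and 60.4 in shControl and 90.2, 103 and 71.5 in shRNF25. COL24A1 and COL27A1 belong to a separate branch of fibrillar collagens. COL24A1 had 16.6, 11.3 and 11.9 in shControl and 37.4, 27.7 and 21.9 in shRNF25, and COL27A1 had 198, 192 and 131 in shControl and 278, 298 and 254 in shRNF25. The groups did not overlap for any of these genes, although the distance was small for COL11A2 and COL24A1. Their log2 fold changes were 1.23 (SE 0.34, adjusted p = 0.0324), 1.06 (SE 0.30, adjusted p = 0.0323) and 0.69 (SE 0.18, adjusted p = 0.0253).

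These weaker calls were lost when certain single libraries were left out. COL11A2 was not called without shControl 2 (adjusted p = 0.0781) or without shRNF25 1, 2 or 3 (adjusted p = 0.116, 0.122 and 0.0657). COL27A1 was lost without shControl 3, where its log2 fold change was 0.50, and without shRNF25 1, 2 or 3 (adjusted p = 0.101, 0.112 and 0.0685). COL24A1 was called in 7 of 14 alternative fits and lost without shControl 2 or 3 or any 1 shRNF25 library (adjusted p = 0.0818, 0.0566, 0.154, 0.106 and 0.0543), with no filter (0.062) and with quantile normalization (0.0712). The count of collagen genes called higher, 7, was 4 without shControl 2 or shRNF25 3 and 3 without shRNF25 1 or shRNF25 2.

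COL1A1, the major chain of type I collagen, had normalized counts of 1182, 1089.6 and 1258 in shControl and 992, 848 and 901 in shRNF25. The groups did not overlap, and the log2 fold change of -0.37 (SE 0.11, adjusted p = 0.0479) was under the 1.5-fold criterion. The adjusted p was above the threshold in 10 of the 15 alternative fits. Its usual partner COL1A2 had 1 or 2 reads in every library, so that nearly all type I reads in these libraries were on COL1A1. COL11A1, a further type XI chain, had 0 to 2 reads in shControl and 5 to 7 in shRNF25 and did not pass the filter.

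**Figure D2:**
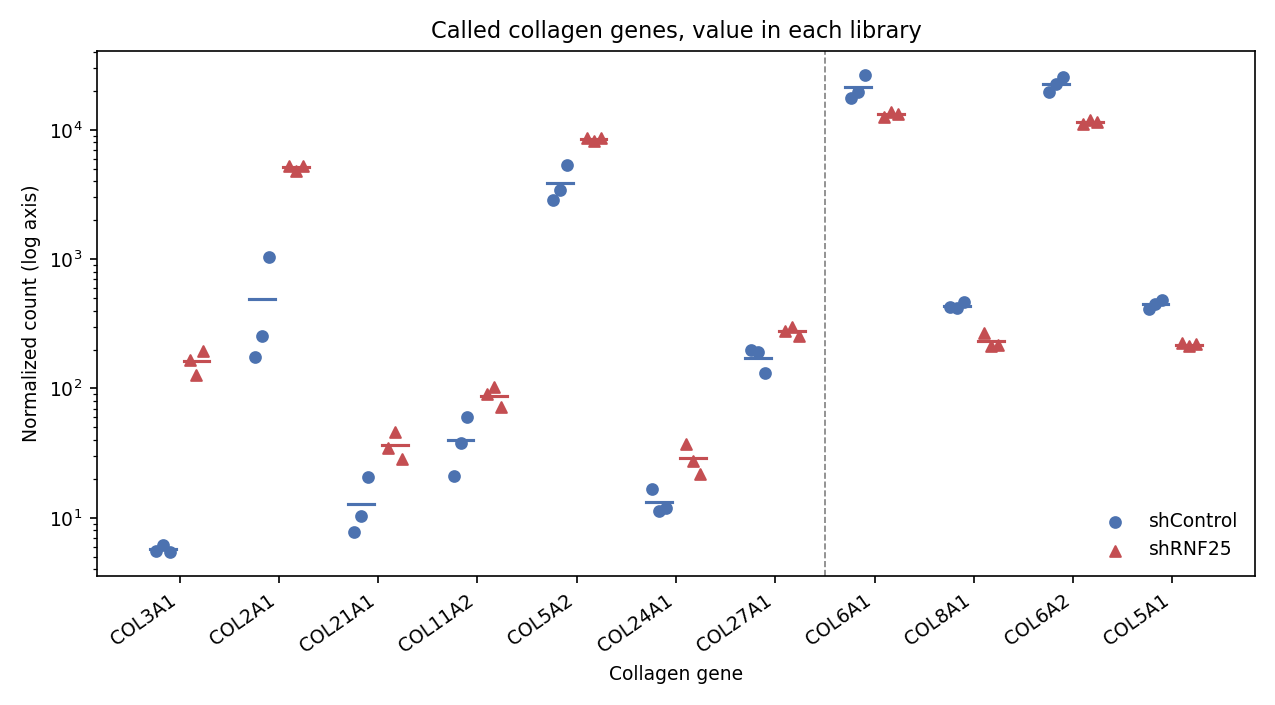
Normalized count (log y axis) of the 11 called collagen genes in each library, with shControl as circles, shRNF25 as triangles and group means as short lines (n = 3 each). Genes left of the dashed line were called higher and those right of it lower; COL2A1 in shControl 3, at 1045, stands above the other controls, and COL3A1 lies at 5.40 to 6.16 in all controls.

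COL3A1 and COL5A2 are neighbours on chromosome 2. In the GENCODE 29 annotation of GRCh38, COL3A1 lies at chr2:188974320-189012746 on the plus strand and COL5A2 at chr2:189031896-189225312 on the minus strand, tail to tail with 19149 bases between them. Both rose, by 4.59 and 1.19 on the log2 scale. COL2A1 lies on its own at chr12:47972965-48004554, and COL5A1 at chr9:134641774-134844843. No 50-base stretch of the longest coding transcript of these genes was found in a transcript of another gene. Exon bases outside those transcripts were not checked.

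To compare levels between genes, normalized counts were divided by the length of the merged exons in kilobases. Merged exons exceed the longest coding transcript by unlike amounts. For COL6A3 they are 19.6 kb against 10749 bases, and for COL6A1 5.34 kb against 4238 bases. Levels, shares and ratios between genes therefore depend on the length used. The fibrillar genes together had 587, 668 and 1062 normalized counts per kb in shControl and 2126, 1985 and 2127 in shRNF25, a ratio of means of 2.69. Their share of all collagen per kb was 6.34% to 8.22% in shControl and 23.1% to 25.2% in shRNF25. COL5A2 was the most abundant fibrillar chain in both groups, with 65.3% to 68.5% of fibrillar signal per kb in shControl and 54.3% to 55.2% in shRNF25. COL2A1 had 4.46%, 5.67% and 14.8% in the controls and 36.5% to 37.2% after knockdown, and the share of COL1A1 was 12.1% to 20.5% in shControl and 4.31% to 4.75% in shRNF25. COL3A1 stayed a minor chain, with at most 1.34% of the fibrillar signal per kb in any library.

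**Figure D3:**
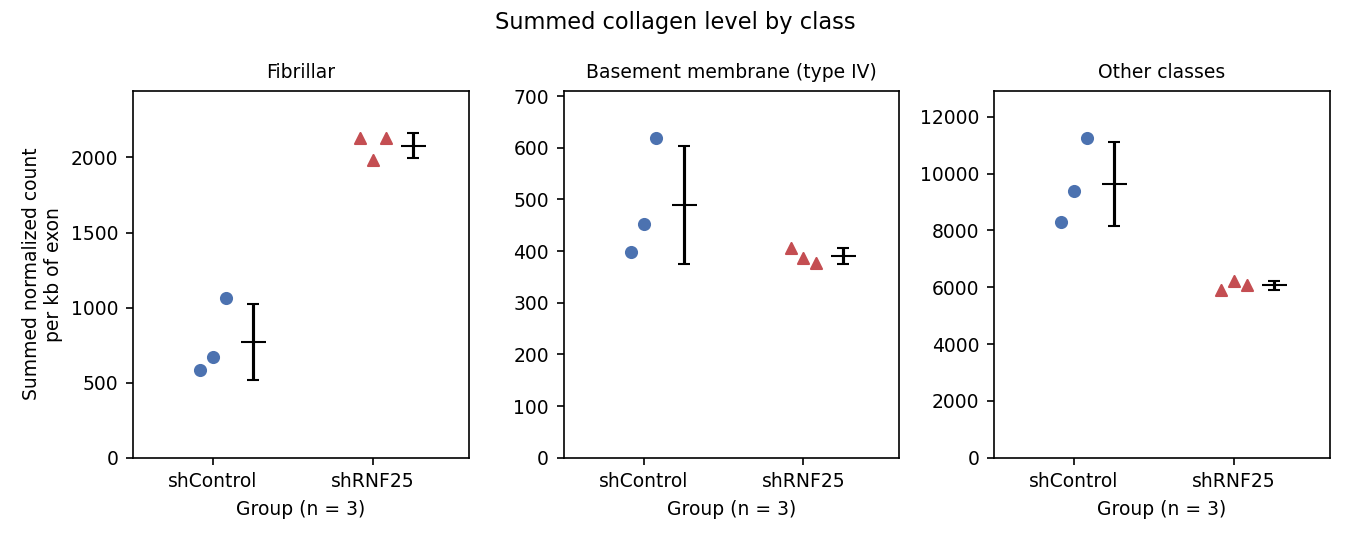
Summed normalized count per kb of exon (y axis, from 0, a separate scale in each panel) of fibrillar, type IV and other collagens in the 3 shControl (circles) and 3 shRNF25 libraries (triangles), with the mean and SD in black. Fibrillar sums lie at 587 to 1062 in shControl and 1985 to 2127 in shRNF25, type IV sums overlap between the groups, and the other classes lie at 8280 to 11235 in shControl and 5897 to 6224 in shRNF25.

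None of the 6 type IV genes was called in either direction, beside 15.75% of all tested genes. With only 6 genes, 0 calls cannot be told from that share. An unadjusted limma p under 0.05 was found for 3 of them (COL4A2, COL4A4 and COL4A6). By edgeR and by DESeq2 on whole reads 0 were called. COL4A1 and COL4A2, the chains of nearly all basement membranes, had normalized counts of 1171, 1214 and 1772 (COL4A1) and 3300, 4097 and 5522 (COL4A2) in shControl. In shRNF25 the values were 1238, 1118 and 1069 for COL4A1 and 3069, 3204 and 3106 for COL4A2. The groups overlapped for COL4A1, whose log2 fold change was -0.26 (95% CI -0.62 to 0.11, adjusted p = 0.296). They did not overlap for COL4A2, at -0.43 (95% CI -0.81 to -0.05, adjusted p = 0.103). COL4A2 was called lower without shControl 1 (log2 fold change -0.61, adjusted p = 0.0035) and was at -0.23 without shControl 3 (adjusted p = 0.189). With 1 library left out COL4A1 lay between -0.36 and -0.06.

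COL4A3 and COL4A4, which with COL4A5 form the network of the glomerular basement membrane, were at low levels. COL4A3 had 17.7, 30.8 and 36.7 in shControl and 57.4, 32.3 and 40.0 in shRNF25, a log2 fold change of 0.61 (95% CI -0.11 to 1.34, adjusted p = 0.209). COL4A4 had 39.8, 38.0 and 87.4 in shControl and 100.2, 77.6 and 82.9 in shRNF25, a log2 fold change of 0.75 (95% CI 0.05 to 1.45, adjusted p = 0.117). The groups overlapped for both genes, and COL4A4 was called higher without shControl 3 (1.13, adjusted p = 0.00567).

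COL4A5 and COL4A6 form the network of smooth muscle and of Bowman's capsule. COL4A5 had 1309, 1383 and 1807 in shControl and 1395, 1254 and 1249.6 in shRNF25, a log2 fold change of -0.19 (95% CI -0.50 to 0.12, adjusted p = 0.35). COL4A6 had 292, 325 and 434 in shControl and 277, 258 and 234 in shRNF25, a log2 fold change of -0.43 (95% CI -0.81 to -0.06, adjusted p = 0.0968). The COL4A5 groups overlapped and the COL4A6 groups did not. With 1 library left out the log2 fold change lay between -0.28 and -0.05 for COL4A5 and between -0.55 and -0.27 for COL4A6. The type IV sum was 398, 454 and 618 normalized counts per kb in shControl and 407, 387 and 377 in shRNF25, with overlapping groups. The 95% intervals of all type IV genes except COL4A5 include changes of 1.5-fold.

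The type IV genes sit in pairs that share a start region and are read in opposite directions. By RefSeq start sites on GRCh38.p14, 126 bases lie between COL4A1 and COL4A2, 418 between COL4A4 and COL4A3 and 379 between COL4A6 and COL4A5. Stretches free of annotated exons between the last 2 pairs are shown. They were chosen because they belong to the shared start regions of 4 of the 6 type IV genes, none of which was called. The stretch between COL4A1 and COL4A2 is nearly all annotated exon. For COL4A4 and COL4A3 all 111 bases between the annotated genes are printed. For COL4A6 and COL4A5 only 250 of the 346 bases between them are printed, and most of those left out lie next to COL4A6. The printed stretches are chr2:227164454-227164564 and chrX:108439588-108439837, plus strand, with capitals for GGGCGG (the GC box), CCAAT and TATAAA on either strand.
COL4A4 and COL4A3: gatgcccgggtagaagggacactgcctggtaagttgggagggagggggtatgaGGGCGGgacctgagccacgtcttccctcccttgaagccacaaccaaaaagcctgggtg
COL4A6 and COL4A5: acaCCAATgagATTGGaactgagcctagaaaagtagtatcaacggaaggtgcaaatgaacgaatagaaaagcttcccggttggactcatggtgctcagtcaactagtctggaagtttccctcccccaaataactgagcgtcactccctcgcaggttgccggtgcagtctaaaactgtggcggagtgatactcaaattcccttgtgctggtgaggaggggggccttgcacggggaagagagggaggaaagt
Neither printed stretch holds TATAAA. The first holds 1 GC box and the second holds CCAAT 2 times, once on each strand. The promoter window of COL4A6, which reaches past the printed bases, holds CCAAT 3 times.

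Within pairs the balance of the chains was measured as a ratio of normalized counts per kb in each library. The ratio of COL4A2 to COL4A1 was 2.15, 2.58 and 2.38 in shControl and 1.89, 2.19 and 2.22 in shRNF25 (two-sided exact permutation p = 0.3). That of COL4A4 to COL4A3 was 2.04, 1.12 and 2.16 in shControl and 1.58, 2.17 and 1.88 in shRNF25 (exact p = 0.8). Both ratios overlapped between the groups. COL4A5 to COL4A6 had a mean (± SD, n = 3) of 3.36 ± 0.13 in the controls and 3.98 ± 0.19 after knockdown, without overlap (exact p = 0.1, the smallest that 3 against 3 libraries can give).

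The same measure set the type V chains apart. COL5A2 per kb was 10.4, 11.5 and 16.5 times COL5A1 in shControl and 57.6, 58.0 and 59.3 times in shRNF25 (exact p = 0.1). Relative to COL1A1, COL2A1 per kb was 0.22, 0.34 and 1.22 in shControl and 7.80, 8.39 and 8.62 in shRNF25, and COL3A1 was 0.0062 to 0.0081 in shControl and 0.22 to 0.31 in shRNF25 (exact p = 0.1 for each). Over the 9 ratios computed the Benjamini-Hochberg adjusted value of each p of 0.1 was 0.129, so that no ratio could pass the 0.05 threshold in this design.

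Among the other classes 1 of 14 tested genes was called higher and 3 lower, beside 8.65% and 7.1% of all tested genes. The lower genes included the most abundant collagens of the line. COL6A2 had normalized counts of 19492, 22514 and 25493 in shControl and 11181, 11997 and 11587 in shRNF25, and COL6A1 had 17750.1, 19712 and 26727 in shControl and 12596, 13735 and 13334 in shRNF25. Type VI collagen forms the beaded filaments that lie between basement membranes and stroma, and both genes sit on chromosome 21. Every knockdown library was below every control for both. The log2 fold change was -0.95 (SE 0.12, adjusted p = 0.000988) for COL6A2, called in each of the 15 alternative fits, and -0.67 (SE 0.15, adjusted p = 0.0142) for COL6A1. COL6A1 was lost with quantile normalization (-0.40, adjusted p = 0.0892), without shControl 3 (log2 fold change -0.50, under 1.5-fold) and without shRNF25 1, 2 or 3 (adjusted p = 0.075, 0.0522 and 0.0611).

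COL6A3, the third and longest chain of the classical type VI molecule, had 1033, 1146 and 1565 in shControl and 1452, 1293 and 1339 in shRNF25. Its groups overlapped, and the log2 fold change was 0.15 (95% CI -0.20 to 0.50, adjusted p = 0.535). Without shControl 3 it was 0.32 (adjusted p = 0.0734). Per kb, COL6A1 was 63.2, 63.2 and 62.8 times COL6A3 in shControl and 31.9, 39.0 and 36.6 times in shRNF25. COL6A2 was 68.8, 71.6 and 59.4 times COL6A3 in shControl and 28.1, 33.8 and 31.5 times in shRNF25. Neither ratio overlapped between the groups (exact p = 0.1 for each, the smallest possible). COL6A1 and COL6A2 together made up 74.9% to 75.4% of all collagen per kb in shControl and 52.6% to 55.8% in shRNF25. The sum over all collagens per kb had a mean (± SD, n = 3) of 10895 ± 1855 in the controls and 8531 ± 88.4 after knockdown, and it too was lower in every knockdown library than in any control.

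COL8A1, a short-chain network collagen of vessel walls and the cornea, had 429, 417 and 464 in shControl and 267, 214 and 216 in shRNF25. The groups were far apart, with a log2 fold change of -0.91 (SE 0.14, adjusted p = 0.00195) that was called in each of the 15 alternative fits. COL21A1, a FACIT collagen, was the only higher call here, with 7.74, 10.3 and 20.5 in shControl and 34.6, 46.2 and 28.6 in shRNF25. Its log2 fold change was 1.52 (SE 0.37, adjusted p = 0.0184), and it was lost without shControl 2 (adjusted p = 0.0594), shRNF25 1 (0.0728) or shRNF25 2 (0.0878).

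The remaining 10 tested genes of the other classes were not called. Among FACIT chains, COL12A1, found on fibrils of dense tissue, had 4154 to 4824 normalized counts in shControl and 4757 to 4807 in shRNF25 (log2 fold change 0.13, 95% CI -0.10 to 0.36). COL16A1 (-0.15, 95% CI -0.71 to 0.41) and the cartilage chains COL9A2 (-0.11, 95% CI -0.65 to 0.42) and COL9A3 (0.30, 95% CI -0.17 to 0.78) were between 53.1 and 315 in all libraries. The transmembrane COL13A1 was among the 5 highest collagens per kb in both groups, with 2695 to 3812 in shControl and 2971 to 3089 in shRNF25. Its log2 fold change was -0.09 (95% CI -0.39 to 0.21), and it changed sign with quantile normalization (0.05). COL18A1, which carries the endostatin fragment and lies in basement membrane zones, had 1749.9 to 3179 in shControl and 2488 to 2635 in shRNF25 (0.08, 95% CI -0.35 to 0.51). SLC19A1 covers 16.4% of the exon bases of COL18A1 on the opposite strand and was not called either (-0.19, adjusted p = 0.279).

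COL7A1, the anchoring fibril below squamous epithelium, and COL17A1, a hemidesmosome collagen, showed the same kind of control spread as COL2A1. COL7A1 had 189, 285 and 627 in shControl and 391, 353 and 327 in shRNF25, and COL17A1 had 108, 109 and 322 in shControl and 194, 170 and 157 in shRNF25. In each, shControl 3 lay above all knockdown libraries and the other controls below them. The log2 fold changes were 0.14 (95% CI -0.66 to 0.94) and 0.15 (95% CI -0.69 to 0.98), and without shControl 3 they were 0.61 (adjusted p = 0.0511) and 0.67 (adjusted p = 0.0185, called higher). COL28A1, of low level, had 8.63 to 11.1 in shControl and 9.53 to 17.3 in shRNF25 (0.42, 95% CI -0.31 to 1.16).

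The 12 collagen genes under the minimum had between 0 and 13 reads in any library. COL15A1, a relative of COL18A1, had 7, 8 and 13 reads in shControl and 5, 1 and 2 in shRNF25, and COL14A1 had 0 to 2 reads in shControl and 3 or 4 in shRNF25. COL8A2 had 1 to 5 reads in shControl and 6 in each shRNF25 library, COL20A1 1 to 4 and 1, COL10A1 1 to 6 and 0 to 4, and COL26A1 3 to 8 and 4 to 7. COL6A5, COL6A6 and COL23A1 had at most 2 reads anywhere, as had COL1A2. With no filter on low values COL11A1 was called higher (log2 fold change 1.81, adjusted p = 0.0498) and COL15A1 lower (-1.76, adjusted p = 0.0484), both close to the threshold, and none of the other 10 was called.

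The starts of 3 called genes are shown as examples of the sequence next to genes that fell (COL5A1, COL6A2) and rose (COL27A1). The COL27A1 call was lost when certain single libraries were left out. They are the stretches just before the RefSeq start that hold no annotated exon, at chr9:134641553-134641773, chr21:46097862-46098096 and chr9:114155287-114155536 of GRCh38.p14, plus strand, with the same motifs in capitals.
COL5A1: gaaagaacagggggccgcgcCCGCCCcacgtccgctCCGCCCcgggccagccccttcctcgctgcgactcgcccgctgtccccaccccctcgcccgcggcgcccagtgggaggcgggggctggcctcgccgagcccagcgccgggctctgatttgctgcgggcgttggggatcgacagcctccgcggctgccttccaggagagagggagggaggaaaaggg
COL6A2: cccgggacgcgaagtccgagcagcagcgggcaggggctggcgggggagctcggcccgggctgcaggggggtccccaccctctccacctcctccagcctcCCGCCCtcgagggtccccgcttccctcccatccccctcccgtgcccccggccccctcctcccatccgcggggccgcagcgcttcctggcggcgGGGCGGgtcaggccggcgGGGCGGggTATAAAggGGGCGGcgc
COL27A1: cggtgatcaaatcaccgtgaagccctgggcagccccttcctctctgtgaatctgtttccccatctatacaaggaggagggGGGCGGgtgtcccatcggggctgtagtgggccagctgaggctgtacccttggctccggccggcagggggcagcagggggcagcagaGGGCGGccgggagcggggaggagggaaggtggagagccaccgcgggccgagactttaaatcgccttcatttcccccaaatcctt
COL5A1 and COL27A1 each hold 2 GC boxes and no TATAAA, and COL6A2 holds 4 GC boxes and 1 TATAAA.

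Promoter windows of 300 bases were found for 29 of the 40 collagen genes, 40 windows in all, so that some genes counted more than once. The called genes COL2A1, COL3A1, COL5A2, COL6A1 and COL8A1 had no window and are outside the shares given here. GGGCGG was present on either strand in 60.0% of the 40 windows and in 45.0% of all 35116 windows in the RefSeq table. TATAAA was in 20% of the collagen windows and 11.5% of all, and CCAAT in 30% and 34.6%. GGGNNNNNCC, the outer letters of the κB site to which NF-κB binds, was in 65.0% of collagen windows and 58.7% of all. It overlaps GC boxes where both occur in a run of G, and these matches of letters are a description of the windows.

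Procollagen chains are hydroxylated, folded, glycosylated, exported, trimmed and cross-linked by a dedicated machinery, and 40 genes of it were listed. Of the 38 that passed the filter, 3 were called higher and 5 lower, beside the 8.65% and 7.1% of all tested genes, with a median log2 fold change of -0.22. The lower genes included chain hydroxylases. P4HA1 and P4HA2 encode catalytic subunits of the prolyl 4-hydroxylases that stabilise the triple helix, and PLOD2 the lysyl hydroxylase of the telopeptides. P4HA1 had 3790, 2908 and 3460 normalized counts in shControl and 1327, 1392 and 1385 in shRNF25 (log2 fold change -1.30, SE 0.12, adjusted p = 0.000168). PLOD2 had 5763, 4545 and 4835 in shControl and 2014, 1978 and 1870.1 in shRNF25 (-1.36, SE 0.12, adjusted p = 0.00012). P4HA2 went from 1228, 1602 and 1579 to 697, 694 and 819 (-0.99, SE 0.14, adjusted p = 0.00135), and none of these genes had overlapping groups.

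LOXL2 and LOXL4 are lysyl oxidases, which cross-link collagen outside the cell, and they moved in opposite directions. LOXL2 had 5443, 5627 and 7940.3 in shControl and 2725, 2831 and 2855 in shRNF25 (-1.15, SE 0.15, adjusted p = 0.000928). LOXL4 had 26.5, 45.2 and 28.1 in shControl and 67.4, 65.6 and 79.1 in shRNF25 (1.10, SE 0.24, adjusted p = 0.0124) and was lost without shRNF25 1 (adjusted p = 0.054) or shRNF25 3 (0.0677). LOX itself was not called (-0.79, adjusted p = 0.0658). ADAMTS14, a protease that removes the amino-terminal propeptide of fibrillar procollagens, had 177, 296 and 236 in shControl and 24.6, 34.2 and 36.2 in shRNF25 (-2.85, SE 0.23, adjusted p = 0.000101), the largest fall of the list.

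CREB3L1 encodes a membrane-bound transcription factor of the endoplasmic reticulum known to drive procollagen genes in bone. It had 82.9, 54.4 and 109 normalized counts in shControl and 1039.7, 1092 and 950.3 in shRNF25, so that each knockdown library was far above each control. The log2 fold change was 3.68 (SE 0.23, adjusted p = 1.73e-05), the largest rise of the list, and it was called in each of the 15 alternative fits. COLGALT2, which adds galactose to hydroxylysine, had 28.7, 18.5 and 18.4 in shControl and 75.6, 69.3 and 58.1 in shRNF25 (1.61, SE 0.25, adjusted p = 0.00219).

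The rest of the machinery was not called with all libraries and the settings above. LOX was called lower with quantile normalization (-0.96, adjusted p = 0.0312) and with the replicate number as a block (-0.79, adjusted p = 0.0401), SEC24D without shControl 2 (-0.69, adjusted p = 0.011) and BMP1 without shControl 1 (-0.69, adjusted p = 0.000743). SERPINH1, the collagen chaperone HSP47, had 754, 931 and 1485 in shControl and 1487, 1630.0 and 1532 in shRNF25 (0.61, 95% CI 0.13 to 1.09, adjusted p = 0.0727), and it was called higher without shControl 3 (0.89, adjusted p = 0.00274) and with the block (adjusted p = 0.0321). P3H2 (0.51), PLOD3 (-0.50), SEC24D (-0.58) and PXDN, which forms the sulfilimine cross-links of type IV collagen (-0.47), passed the adjusted p threshold (0.0245, 0.0125, 0.0136 and 0.0089) with folds under 1.5. TLL2 and ADAMTS2 had at most 13 reads in any library and were not tested.

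Of 12 collagen receptors listed, 9 were tested, 1 was called higher and 1 lower, beside 8.65% and 7.1% of all tested genes. Counts this small cannot be told from those shares. ITGA10, the integrin subunit that binds cartilage collagen, had 43.1, 85.2 and 61.5 in shControl and 263, 258 and 257 in shRNF25 (2.07, SE 0.23, adjusted p = 0.00044). ITGA2, the subunit of the collagen receptor of epithelia and platelets, had 7047, 5379 and 5765 in shControl and 3551, 3265 and 3163 in shRNF25 (-0.86, SE 0.12, adjusted p = 0.00167). Neither had overlapping groups, and both were called in each of the 15 alternative fits. Their shared partner ITGB1 was lower by less than 1.5-fold (-0.55, adjusted p = 0.0203), was called without shControl 2 (-0.66, adjusted p = 0.0133) and had an adjusted p of 0.249 with quantile normalization. The receptor kinases DDR1 (-0.06) and DDR2 (0.19) were not called.

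**Figure D4:**
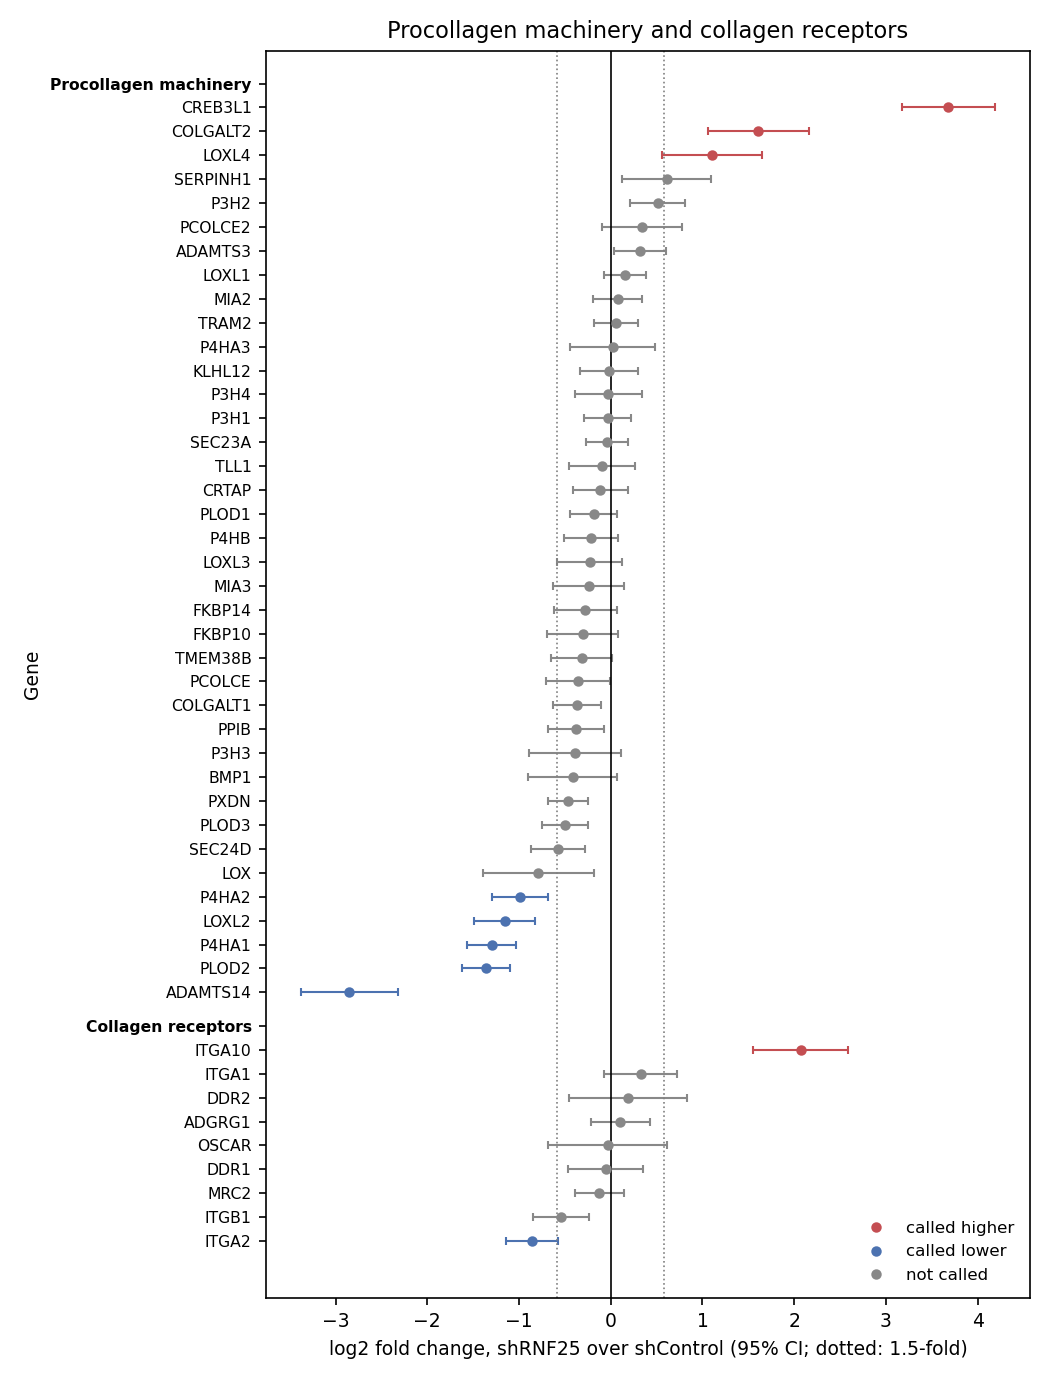
Log2 fold change in shRNF25 over shControl (x axis, points with 95% confidence intervals from limma, n = 3 and 3) of the 38 tested genes of the procollagen machinery and the 9 tested collagen receptors, one row a gene. CREB3L1 at 3.68 and ADAMTS14 at -2.85 lie farthest from 0 in the machinery, and ITGA10 at 2.07 in the receptors.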

How the data were processed

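RNA-seq of SW839 cells was analysed in 3 shRNF25 and 3 shControl libraries, grouped by their labels. The deposited table holds normalized counts by gene symbol, a signal that the authors made by dividing gene counts by 1 scaling factor for each library, without correction for length or batch. The submitters' processing notes name fastp, HISAT2, HTSeq and GRCh38, and the study's methods name DESeq2. The annotation and the strand setting of the counting are not given in the sources used here. Whole reads came back for 100% of values (largest deviation 0.000121 reads), and the factors, 0.905 to 1.10, equaled DESeq2's median-of-ratios factors.

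The deposited scaling was kept. Groups were compared with limma 3.58.1 (lmFit, eBayes with a trend, R 4.3.3) on log2(normalized count + 1), which understates changes of low genes, with Benjamini-Hochberg adjustment over the 16554 genes of at least 10 in 3 libraries. Standard errors and 95% intervals are limma's. In simulated data over 16458 genes for this comparison, limma recovered 193 of 200 changed genes with 7 false calls. The simulation gave both groups the same spread, changed no genes of low level and used only changes larger than 1.5-fold. Its recovery may therefore not hold for these libraries, whose controls spread more than the knockdown libraries. Every collagen gene was named; in the machinery and receptors, all called genes, while others there and the cell type markers were named after their values were seen. The members and lists were chosen with earlier results of these data known. Positions and exon lengths come from GENCODE 29, sequences from RefSeq. Alternatives were pseudocounts of 5 and 0.5, other filters, quantile normalization, rescaling on the median ratio, edgeR 4.0.16 and DESeq2 1.42.0 on whole reads, a replicate block, each library left out in turn, other fold criteria, and a wider basement membrane class. COL9A1, COL19A1, COL22A1 and COL25A1 were not analysed here.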

Additional observations from a re-analysis of the deposited data

How the results depend on the processing

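COL3A1, COL2A1, COL5A2, COL5A1, COL6A2 and COL8A1 were called in the same direction in each of the 15 alternative fits. With a fold of at least 2, the lower calls were 1 among all collagens, 0 among the other classes and 0 among receptors, and 1406 genes of the whole table were called in place of 2607. With no fold criterion 2 fibrillar genes, 8 machinery genes and 2 receptors were lower, beside 1785 of all 16554 tested genes. With a minimum of 50 in 3 libraries no gene of the other classes was higher (0), since COL21A1 was not tested. With 1 library left out at a time the higher calls ranged from 3 to 7 among all collagens, 3 to 6 among fibrillar genes, 0 to 1 among type IV genes and 0 to 2 in the other classes. The lower calls ranged from 0 to 1 among type IV genes and 1 to 2 among receptors, and the whole table held 1561 to 2994 calls. The signs of genes that were not called changed for COL17A1 with DESeq2 (-0.0371) and edgeR (-0.0156), for COL7A1 with DESeq2 (-0.0306) and edgeR (-0.0106), and for COL13A1 with quantile normalization (0.0521). With 1 library left out the log2 fold change lay between -0.376 and 0.0991 for COL9A2, -0.112 and 0.668 for COL17A1, -0.442 and 0.122 for COL16A1, -0.249 and 0.614 for COL7A1, -0.155 and 0.276 for COL18A1 and -0.222 and 0.0285 for COL13A1. The cause of these changes was not tested. For the 28 tested collagens, 8 called machinery genes and 2 called receptors, 516 results under the alternatives kept their direction and side of the adjusted p threshold alone, fold set aside, 33 lost it, 5 gained it and 12 changed sign. Counting COL7A1, COL15A1, COL17A1 and COL18A1 with the type IV genes added no call.

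Libraries of the same number did not deviate together (r = -0.0638, -0.0874 and 0.0471), so the numbers were not taken as pairs; with the replicate block 7 collagens were higher, 4 lower and 2591 genes of the whole table called. Rescaling on the median ratio and quantile normalization shifted the median of all genes by 0.0653 and 0.0273 on the log2 scale. With no filter, COL11A1 (higher) and COL15A1 (lower), each with at most 13 reads in any library, were also called, and 5 collagens were lower; at such depth single reads weigh heavily.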
